A study of Mus musculus with 13 samples.

Results

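The genes described here are 10 markers of somatic cells of the ovary, followed through 13 RNA-seq libraries of irradiated mouse oocytes. Star, Cyp11a1, Cyp17a1, Hsd3b1 and Cyp19a1 make up the steroidogenic group of the list, and Foxl2, Amh, Fst, Inha and Kitl the granulosa group. They were listed by symbol as known markers, with earlier results of these data known, out of 49585 genes, and all 10 had reads in every library. The questions were how much RNA of this kind each oocyte library holds and whether that amount moves with dose or time.

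Ovaries of P5 CD-1 mice were kept in culture overnight and exposed to a Cs-137 source, and 4 ovaries were pooled for each time point. Oocytes were then freed with trypsin, and several slow spins were used to leave the follicular cells behind. The 0.5 Gy dose was sampled in 8 libraries, with duplicates at 0, 1 and 4 h and a single library at 2.5 and at 6 h, and the 0.2 Gy dose in 5 libraries, 1 for each of the same times. The 0 h libraries are labelled as 0 h after irradiation, and the study's text on the RNA-seq of 0.5 Gy describes 0 h as sampled before exposure. The labels assign replicate 1 of 0.5 Gy to the first generation, replicate 2 and the 2.5 and 6 h libraries of that dose to the second, and every 0.2 Gy library to the third, so dose and generation cannot be told apart. The labels do not say what a generation is, nor whether libraries of a group came from separate litters, and p-values therefore measure only the spread between these libraries. The libraries held between 15709549 and 30430104 estimated reads. Each level below is a TMM-scaled count in CPM, the reads of a gene scaled to a common library total, unless it is named as TPM, the measure that also divides by transcript length.

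Granulosa cells enclose each oocyte, and in the days after birth most of them form the single flat layer of primordial follicles, while a first wave of follicles is already growing. They send KIT ligand to the oocyte and produce inhibin, follistatin and, once growth starts, anti-Müllerian hormone, and the transcription factor FOXL2 keeps them in their female fate. Steroid synthesis is shared out between cells: in theca and interstitial cells STAR moves cholesterol into the mitochondrion, and the cells convert it with CYP11A1, HSD3B and CYP17A1 to androgens, which granulosa cells turn into estrogens with aromatase, the product of Cyp19a1. In an oocyte preparation, reads of these genes were taken here as a sign of RNA from somatic cells. The files tie no read to a cell type.

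Several of the 10 genes have close relatives or more than 1 transcript form, which sets what reads of 30 bases can tell apart. Hsd3b1 (chr3:98852194-98859794, minus strand, GRCm38) lies in a cluster of similar genes, and of the 1851 different stretches of 30 bases in its GENCODE transcripts, 13.6% also occur in another gene. Its neighbour Hsd3b6, a related enzyme of the same family, has an equally long coding region of 1119 bases without the stop codon, of which 112 differ. The most alike stretch of the pair, coding bases 241 to 330 of both, is printed here because no read inside its 72 identical bases can by itself be given to either gene. If reads were paired, a mate outside the stretch could still tell the genes apart. Capitals mark the bases that differ.
Hsd3b1: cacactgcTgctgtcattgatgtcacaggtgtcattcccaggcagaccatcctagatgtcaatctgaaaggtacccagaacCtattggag
Hsd3b6: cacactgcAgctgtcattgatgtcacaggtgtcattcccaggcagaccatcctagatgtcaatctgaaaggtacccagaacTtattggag
Hsd3b6 itself was measured at 8.36 to 24.8 CPM and Hsd3b1 at 153 to 558 CPM. Of the other 9 genes, Cyp17a1, Amh, Inha and Kitl share no stretch of 30 bases with another gene, and the remaining 5 share at most 3.33%.

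Kitl (chr10:100015630-100100416, plus strand), which encodes the ligand of the KIT receptor on the oocyte, is spliced with or without an exon of 84 coding bases at chr10:100080857-100080940. The exon is known to hold the main site at which the ligand is cut from the cell membrane, so the form without it stays mostly bound to the cell. It is shown in capitals with 30 coding bases on either side.
Kitl: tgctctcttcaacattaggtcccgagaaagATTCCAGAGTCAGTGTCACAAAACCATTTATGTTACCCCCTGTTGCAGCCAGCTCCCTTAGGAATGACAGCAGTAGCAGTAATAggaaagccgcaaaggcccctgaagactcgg

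Cyp19a1 (chr9:54165937-54268110, minus strand) is read from several start sites that differ between tissues. The 2 coding transcripts that start near the coding region, at positions 54193442 and 54193522, held 92.3% of its reads over all libraries, and the 2 transcripts that start far upstream held 3.59%. The RefSeq table for GRCm38.p6 places the near start at 54193743, and the 250 bases before that site, chr9:54193744-54193993 on the minus strand, are printed because almost all aromatase reads belong to transcripts that begin just downstream of it. Capitals mark matches to the TATA box core TATAAA on either strand, which 12.4% of the 32851 RefSeq promoter windows of this length contain. The windows of 6 of the 10 genes were in the table, and a match is a description of the letters only.
Cyp19a1: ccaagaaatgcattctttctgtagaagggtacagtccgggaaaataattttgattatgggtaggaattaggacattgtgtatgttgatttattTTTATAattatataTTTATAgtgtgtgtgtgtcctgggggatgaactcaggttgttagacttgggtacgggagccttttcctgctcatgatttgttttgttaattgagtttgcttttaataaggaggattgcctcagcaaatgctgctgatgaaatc

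The 10 genes together held a small part of every library, and their summed level spread over 1.88-fold. This part is that of the 10 listed genes only and does not measure all somatic RNA. Their summed level was lowest at 1258 CPM in the 0.2 Gy library of 2.5 h, had a median of 1739 CPM and was highest at 2369 CPM in the 0.2 Gy library of 6 h. As a share of the reads on genes this was 0.127%, 95% exact binomial interval 0.126% to 0.129%, in the lowest library and 0.236%, interval 0.234% to 0.238%, in the highest. These intervals cover counting error only. Inha made up between 36.7% and 70.7% of the reads of the list and Hsd3b1 between 11.2% and 28.5%, so the sum mostly follows these 2 genes. The genes did not all move together. Pearson correlations of log2 CPM between Inha and the other genes of the list ranged from -0.60 for Kitl to 0.80 for Amh. At 0.5 Gy the sum was 2260 and 1562 CPM in the 0 h libraries, 1731 and 1739 after 1 h, 1724 after 2.5 h, 1368 and 2144 after 4 h and 1893 after 6 h. The 2 highest and the 2 lowest of these 8 values all came from the duplicates of 0 h and 4 h, 1 high and 1 low library at each time. At 0.2 Gy it was 1881, 1358, 1258, 1769 and 2369 CPM in order of time, a wider range than that of the other dose.

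Oocyte genes were high in every library, and genes of other cells were present in every library too. The 18 oocyte genes of the marker list summed to between 6493 and 9211 CPM, led per length by Padi6, a protein of the oocyte's cytoplasmic lattices, at a mean of 1299 TPM and Zp2, which encodes a protein of the zona pellucida, at 714 TPM. The summed level of the 10 somatic genes was between 0.192 and 0.295 of that of the oocyte genes in the same library. The other 20 granulosa genes listed summed to between 1455 and 2595 CPM, with Amhr2, the receptor of anti-Müllerian hormone, at a mean of 519 TPM and Gja1, a gap junction gene, at 348 TPM. TPM of genes outside the 10 is summed over all transcripts of a gene. That of the 10 genes below counts only coding transcripts with a complete reading frame, so these measures cannot be set against each other. The 16 stroma and theca genes reached 2303 to 4398 CPM, led by the matrix genes Dcn at 166 TPM and Col3a1 at 107 TPM. The 6 red blood cell genes ranged from 857 to 6289 CPM, led by the globin genes Hbb-bs and Hba-a1. The 8 endothelial genes (96.8 to 213 CPM, led by Egfl7 and Esam), the 8 leukocyte genes (42.8 to 111 CPM, led by Lyz2 and Tyrobp) and the 6 surface epithelium genes (44.0 to 82.7 CPM, led by Aldh1a2 and Krt7) were lower, and no gene of any list was at 0 reads in any library. In such bulk samples, fewer cells of a type and less RNA per cell cannot be told apart, and a read of Inha, Fst or Gja1 is not tied to a cell type by the files.

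**Figure D1:**
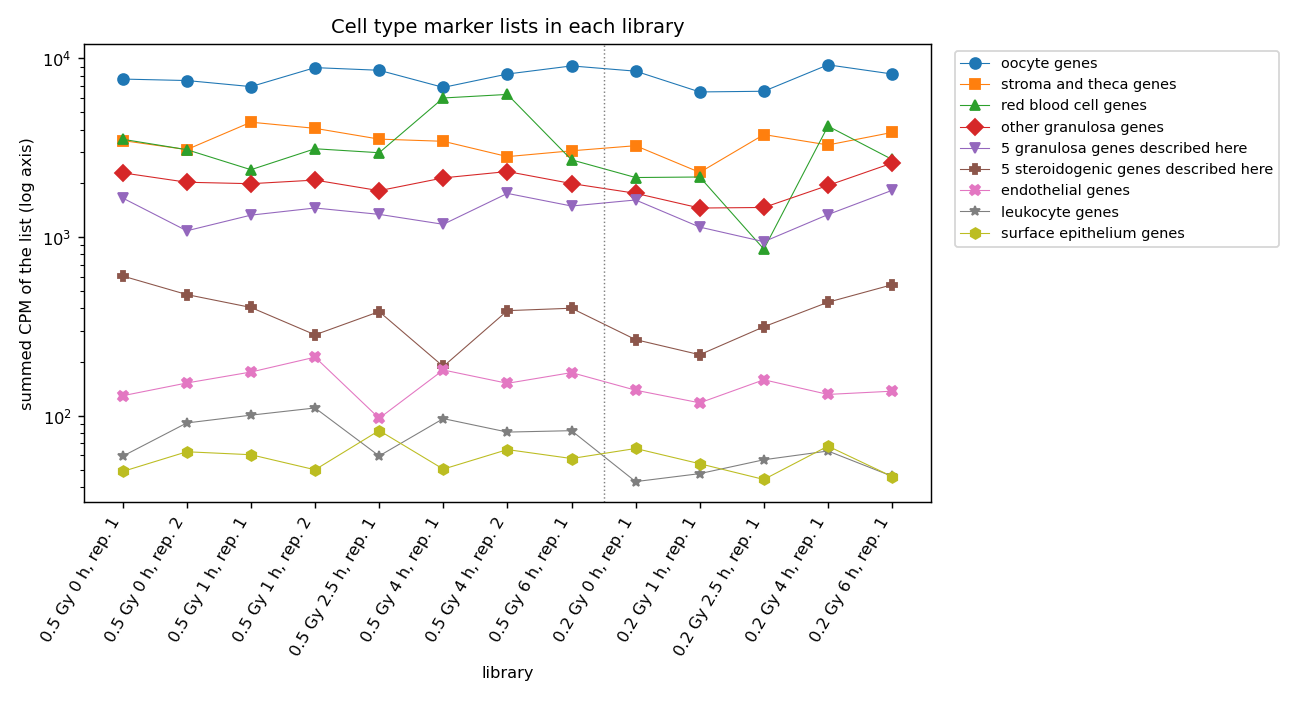
Summed CPM (log axis) of the genes of each marker list in the 13 libraries, with the 8 libraries of 0.5 Gy left of the dotted line and the 5 of 0.2 Gy right of it. The 5 granulosa genes stayed between 943 and 1827 CPM and the 5 steroidogenic genes between 189 and 606 CPM, while the red blood cell genes spanned 857 to 6289 CPM.

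Per length, the granulosa genes stood above most of the steroidogenic ones. In TPM summed over the coding transcripts with a complete reading frame, Inha had a mean of 308 ± 78.1 TPM (SD, n = 13), Hsd3b1 73.1 ± 24.5, Kitl 20.2 ± 10.2, Fst 11.1 ± 2.36 and Foxl2 8.03 ± 1.65. The remaining 5 genes were near 1 TPM, with Amh at 1.46 ± 0.393, Cyp19a1 at 1.27 ± 0.426, Cyp17a1 at 1.16 ± 1.09, Star at 0.733 ± 0.223 and Cyp11a1 at 0.625 ± 0.657. The ranges of neighbours in this order overlapped throughout, apart from Inha, whose lowest value of 195 TPM lay above the highest value of Hsd3b1, 111 TPM, and from Foxl2, whose lowest value of 5.83 TPM lay above the highest value of Amh, 2.00 TPM. The SD of Cyp17a1 and Cyp11a1 was close to or above the mean, which was not so for the other 8 genes. These 2 mRNAs were scarce, with 15 to 518 estimated reads of Cyp17a1 and 8 to 479 of Cyp11a1 per library.

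**Figure D2:**
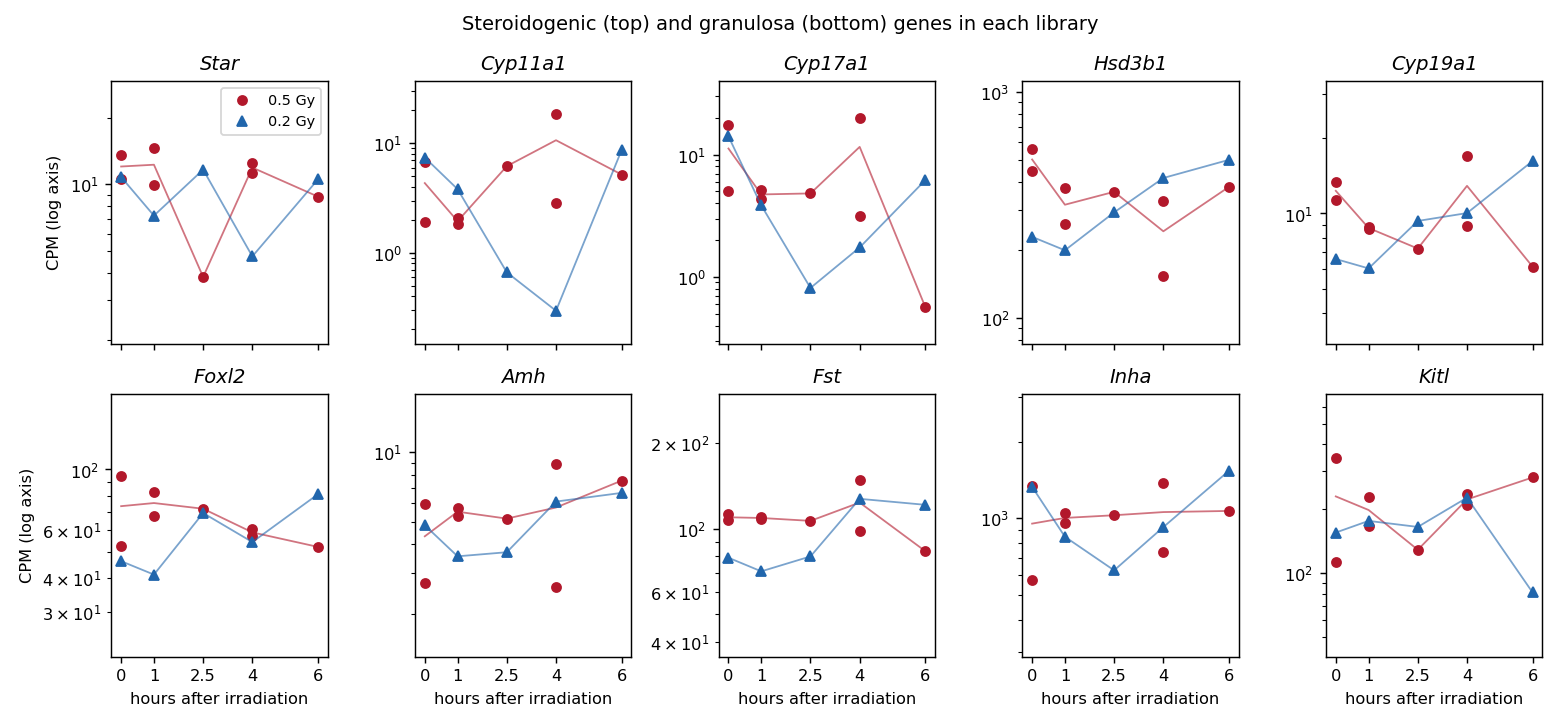
Level of each gene in CPM (log axis, own scale in each panel) against hours after irradiation, with circles for the 8 libraries of 0.5 Gy, triangles for the 5 of 0.2 Gy and lines through the mean of each time point. Cyp11a1 and Cyp17a1 spread over 62.4-fold and 35.2-fold, including within the duplicates of 0 h and 4 h, and the other 8 genes over 2.11-fold to 4.25-fold.

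Star (chr8:25806555-25815982, plus strand) encodes the protein that brings cholesterol into the mitochondrion, the first step of steroid synthesis. Its level at 0.5 Gy was 10.5 and 13.5 CPM in the 0 h libraries, 14.6 and 9.92 after 1 h, 3.83 after 2.5 h, 12.6 and 11.3 after 4 h and 8.81 after 6 h. The single 2.5 h library was the lowest of all 13, and the other 7 of this dose lay between 8.81 and 14.6 CPM. At 0.2 Gy the level was 10.8, 7.23, 11.7, 4.74 and 10.5 CPM in order of time, so that the low library there was that of 4 h and not that of 2.5 h.

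Cyp11a1 (chr9:58006411-58027023, plus strand) encodes the enzyme that cuts the side chain of cholesterol. It was measured at 6.75 and 1.92 CPM in the 0 h libraries of 0.5 Gy, 2.08 and 1.82 after 1 h, 6.18 after 2.5 h, 2.84 and 18.5 after 4 h and 5.18 after 6 h. At 0.2 Gy it was 7.41, 3.81, 0.66, 0.30 and 8.66 CPM. The duplicates of 4 h differed by 2.67 on the log2 scale and those of 0 h by 1.78, where the median absolute difference over 28493 genes was 0.484 and 0.586. A transcript that keeps an intron took 15.1% of its reads over all libraries, but from 1.87% in replicate 2 of 4 h, the highest library of Cyp11a1, to 75.7% in the 0.2 Gy library of 4 h, the lowest, which held 8 reads of the gene.

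Cyp17a1 (chr19:46667165-46673172, minus strand) encodes the enzyme of the androgen branch and is known as a marker of theca cells. At 0.5 Gy its level was 17.4 and 5.02 CPM in the 0 h libraries, 5.13 and 4.32 after 1 h, 4.82 after 2.5 h, 3.15 and 20.0 after 4 h and 0.57 after 6 h. With 0.2 Gy the level was 14.1, 3.84, 0.81, 1.74 and 6.18 CPM. High and low libraries occurred at the same time point at 0.5 Gy, and its duplicates differed by 1.78 at 0 h and by 2.64 at 4 h on the log2 scale.

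The SD of log2 CPM over the 13 libraries placed Cyp11a1 at percentile 97.5 and Cyp17a1 at percentile 97.2 of the 28493 genes tested. The other 8 genes lay between percentiles 19.3 and 51.5, below or close to the median SD of all genes, 0.552. The 4 highest levels of Cyp11a1, Cyp17a1 and Inha were in the same 4 libraries, namely replicate 1 of 0 h and replicate 2 of 4 h at 0.5 Gy and the 0 h and 6 h libraries of 0.2 Gy. The lowest of the 4 was close to the next library for Cyp11a1, at 6.75 against 6.18 CPM, and for Cyp17a1, at 6.18 against 5.13 CPM. For Inha these levels were 1329 and 1069 CPM. These libraries were picked from the levels of these genes after they were seen, so the match carries no test. Among their own 4 highest levels, Star and Kitl had 0 of these libraries, Fst 1, and Hsd3b1, Cyp19a1, Foxl2 and Amh 2 each. Of the 28493 genes tested, 68, or 0.239%, had their 4 highest levels in those 4 libraries. Lhcgr, the receptor of luteinizing hormone on theca and interstitial cells, was among them and was picked out after its values were seen: it measured 11.8, 12.5, 10.5 and 8.98 CPM there and at most 4.81 CPM in the other 9. These 4 libraries come from both doses, all 3 generations and the times 0, 4 and 6 h. The stroma and theca genes summed to 3470, 2822, 3248 and 3853 CPM in them and the red blood cell genes to 3528, 6289, 2155 and 2721 CPM, and the part of these cells in the pattern was not tested.

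**Figure D3:**
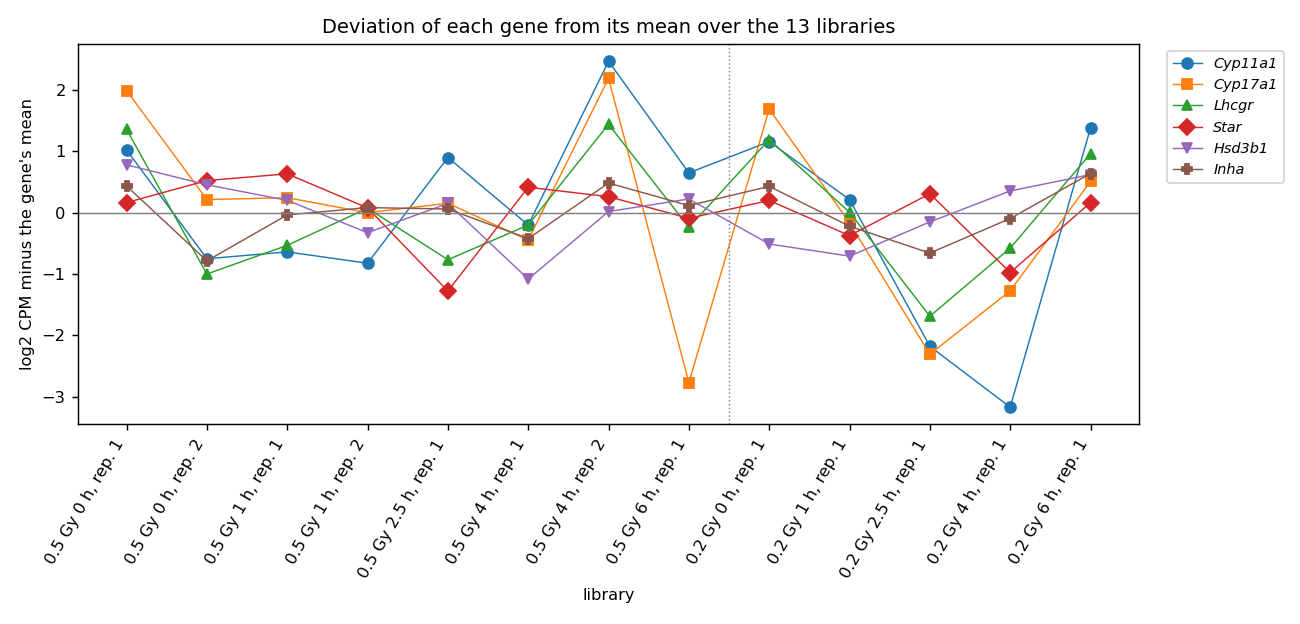
Log2 CPM of 6 genes minus the mean of the gene over the 13 libraries, with 0.5 Gy left of the dotted line and 0.2 Gy right of it. Cyp11a1, Cyp17a1 and Lhcgr stood together above their means in replicate 1 of 0 h and replicate 2 of 4 h of 0.5 Gy and in the 0 h and 6 h libraries of 0.2 Gy, while Star and Hsd3b1 followed other orders.

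Hsd3b1 encodes the 3-beta-hydroxysteroid dehydrogenase that carries pregnenolone to progesterone. It was the highest steroidogenic gene of the list per length, as the TPM values above show. Its level at 0.5 Gy was 558 and 445 CPM in the 0 h libraries, 374 and 259 after 1 h, 361 after 2.5 h, 153 and 329 after 4 h and 379 after 6 h. At 0.2 Gy it was 228, 199, 293, 415 and 500 CPM in order of time. The 0 h libraries were thus the 2 highest of 0.5 Gy, and the 0 h library of 0.2 Gy was the lowest of its dose but 1.

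Cyp19a1, the aromatase gene, was measured at 13.3 and 11.3 CPM in the 0 h libraries of 0.5 Gy, 8.67 and 8.82 after 1 h, 7.24 after 2.5 h, 16.9 and 8.88 after 4 h and 6.13 after 6 h. The 0.2 Gy libraries measured 6.58, 6.03, 9.33, 10.04 and 16.2 CPM. Its highest values, 16.9 and 16.2 CPM, came from late libraries, and the lowest values of the doses, 6.13 and 6.03 CPM, from 6 h at 0.5 Gy and 1 h at 0.2 Gy.

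Of the other 24 genes of the steroid pathway listed, Cyb5a, a cytochrome that aids CYP17A1, and Soat1, which esterifies stored cholesterol, were highest per length. Cyb5a ranged from 350 to 572 CPM and Soat1 from 352 to 694 CPM. The whole list spread over only 1.35-fold, from 1348 to 1815 summed CPM. The list holds genes used by most cells, and these values are not tied to steroid-producing cells.

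Inha (chr1:75507077-75510366, plus strand), which encodes the alpha subunit of inhibin, was the highest gene of the list per length in every library. It was measured at 1335 and 573 CPM in the 0 h libraries of 0.5 Gy, 962 and 1046 after 1 h, 1029 after 2.5 h, 736 and 1380 after 4 h and 1069 after 6 h. At 0.2 Gy the level was 1329, 847, 625, 924 and 1537 CPM. The lowest level was that of 1 library of 0 h, while its duplicate was exceeded only by replicate 2 of 4 h and the 0.2 Gy library of 6 h.

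Fst (chr13:114452290-114458951, minus strand) encodes follistatin, which binds activin. In CPM it was the steadiest of the 10, at 107 and 113 CPM in the 0 h libraries of 0.5 Gy, 110 and 109 after 1 h, 107 after 2.5 h, 149 and 98.3 after 4 h and 83.5 after 6 h. At 0.2 Gy it was 79.1, 70.9, 80.0, 128 and 122 CPM, with the 3 earlier libraries below every library of 0.5 Gy and the 2 later ones within their range.

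Foxl2 (chr9:98955288-98958543, plus strand) is a transcription factor of granulosa cells. Of the 3227 different stretches of 30 bases in its GENCODE transcript, 1 also occurs in another gene, with either strand searched. At 0.5 Gy Foxl2 was 94.4 and 52.3 CPM in the 0 h libraries, 83.0 and 67.7 after 1 h, 71.8 after 2.5 h, 57.2 and 60.5 after 4 h and 52.1 after 6 h. In the 0.2 Gy libraries it was 46.2, 41.2, 69.3, 54.2 and 81.2 CPM. The late libraries of 0.5 Gy lay inside the range of the early ones or just under it.

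Amh (chr10:80805243-80807648, plus strand), the hormone of growing follicles, was measured at 5.94 and 2.71 CPM in the 0 h libraries of 0.5 Gy, 5.29 and 5.76 after 1 h, 5.16 after 2.5 h, 2.60 and 8.92 after 4 h and 7.53 after 6 h. At 0.2 Gy it was 4.82, 3.54, 3.69, 6.11 and 6.66 CPM. The duplicates of 4 h held both the lowest and the highest value of all libraries.

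Kitl was 113 and 344 CPM in the 0 h libraries of 0.5 Gy, 167 and 228 after 1 h, 129 after 2.5 h, 234 and 208 after 4 h and 280 after 6 h. It was 155, 176, 164, 225 and 81.1 CPM at 0.2 Gy. The lowest level was that of the 0.2 Gy library of 6 h, which had the highest level of Inha, and the highest that of replicate 2 of 0 h at 0.5 Gy, which had the lowest level of Inha.

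The split of reads between the 2 main transcripts of Kitl set the first-generation libraries apart from the others. Whether transcripts of other genes did the same was not tested. The longer transcript, with the exon printed above, took 77.7% of all Kitl reads and the transcript without it 14.0%. Of the reads on both, the form without the exon took 0.950%, 4.40% and 4.50% in the first-generation libraries of 0, 1 and 4 h. In the 5 second-generation libraries it took 13.7%, 20.1%, 12.8%, 16.6% and 17.0% in order of time, and in the 5 libraries of 0.2 Gy 25.7%, 21.2%, 17.4%, 21.8% and 12.7%. All 3 first-generation libraries lay below all 10 others, while those of the second generation and of 0.2 Gy overlapped. The generations are those of the labels: for the duplicates of 1 h and 4 h the study lists the mapped read totals the other way round than the files hold them, while its numbers of detected transcripts follow the labels. The transcripts also differ in length, 5648 against 1260 bases, so the estimate does not rest on the exon alone, and the comparison was chosen after the values were seen and carries no test.

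**Figure D4:**
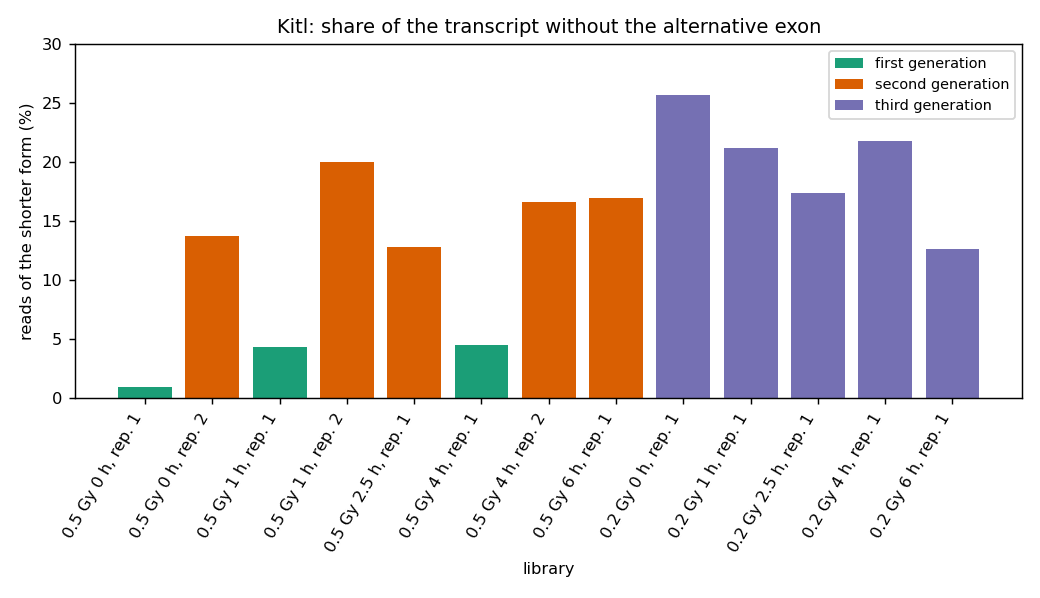
Share of the reads on the 2 main Kitl transcripts that was assigned to the transcript without the 84-base exon, in percent, for each of the 13 libraries, coloured by generation. The 3 first-generation libraries stood at 0.950% to 4.50% and the other 10 at 12.7% to 25.7%.

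The comparison with 0 h asks whether any of these genes changed with time at 0.5 Gy. In edgeR's quasi-likelihood test, a call required an absolute log2 fold change over 1 and a p under 0.05 after Benjamini-Hochberg adjustment over all genes. None of the 10 genes was called at 1, 2.5, 4 or 6 h, where 0% of the 28468 genes tested were called at each time. At an unadjusted p under 0.05, 0 of the 10 passed at 1 h, where 3.98% of all genes did, and 1 each at 2.5, 4 and 6 h, where 5.59%, 5.82% and 5.94% of all genes did. The 3 genes were Star at 2.5 h, with a log2 fold change of -1.66 ± 0.53 (SE) and an adjusted p of 0.875, Hsd3b1 at 4 h, with -1.06 ± 0.37 and an adjusted p of 0.825, and Cyp17a1 at 6 h, with -4.27 ± 1.30 and an adjusted p of 0.722. DESeq2 called Cyp17a1 at 6 h, with a log2 fold change of -4.33 and an adjusted p of 0.00694, and none of the other 9 genes at any time, and limma called none. DESeq2 also called more genes than edgeR over all genes, as given below with the processing. The study's own DESeq2 analysis placed Star among its differentially expressed genes, with higher expression before irradiation than after. Over 7 other settings the adjusted p of Cyp17a1 at 6 h ranged from 0.00694 to 0.833, and over 7 fits that each left out 1 library from 0.630 to 0.821. The value rests on 1 library of 6 h, of the second generation, against duplicates of 17.4 and 5.02 CPM. That of Hsd3b1 at 4 h was -0.62 without replicate 1 of 4 h and -1.72 without replicate 2.

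The late libraries of 0.5 Gy, taken at 2.5, 4 and 6 h, were compared next with the early ones of 0 and 1 h, 4 on each side. Each side thus mixes time points and also generations, as the 2.5 and 6 h libraries are of the second generation only. None of the 10 genes was called, where 0.128% of 22588 genes were, and DESeq2 and limma called none either. The early and late ranges overlapped for all 10 genes, where 5.22% of all genes had ranges that did not overlap. The median log2 fold change of the 10 was -0.077, beside -0.015 over all genes. Inha was 979 ± 314 CPM early and 1054 ± 263 late (SD, n = 4 each), a log2 fold change of 0.09 ± 0.24 with an interval of 2 SE from -0.39 to 0.57. Fst, at -0.02 ± 0.18, and Kitl, at -0.03 ± 0.33, were also close to 0, with intervals of -0.38 to 0.35 and -0.68 to 0.62. Cyp11a1 had the largest difference, 1.35 ± 0.61 with an adjusted p of 0.541, and was the 1 gene of the 10 at an unadjusted p under 0.05, where 9.06% of all genes were. Without replicate 2 of 4 h its value was 0.58. The remaining genes lay between -0.45 for Hsd3b1 and 0.28 for Amh.

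Of the other 20 granulosa genes, 8 were higher and 12 lower late than early, with a median log2 fold change of -0.12, and none was called. The 16 stroma and theca genes had a median of -0.40, with 15 of 16 lower and none called. The 13 genes of the inhibin and activin pathway, a list of subunits, receptors and SMADs that leaves out the 10 genes and shares Amhr2, Inhba and Inhbb with the granulosa list, had a median of 0.029 with none called, and were led per length by Amhr2 and Smad3. The 20 tested genes of the steroid pathway list had a median of 0.027, with 11 higher, 9 lower and none called. No gene of the oocyte, endothelial, leukocyte, surface epithelium or red blood cell lists was called either, and their medians were -0.034, -0.12, -0.10, 0.46 and 0.45.

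The late libraries of 0.2 Gy, of 4 and 6 h, were set against the early 0 and 1 h ones in a fit of the 11 libraries of both doses at these times, so that the spread comes mostly from 0.5 Gy. None of the 10 genes was called, where 0.0462% of 28162 genes were, and DESeq2 and limma called none. At an unadjusted p under 0.05, 4 of the 10 passed, where 7.29% of all genes did, and all 4 were higher late. Hsd3b1 had a log2 fold change of 1.07 ± 0.39 (adjusted p = 0.646), Cyp19a1 1.03 ± 0.46 (adjusted p = 0.679), Fst 0.70 ± 0.25 (adjusted p = 0.638) and Foxl2 0.60 ± 0.27 (adjusted p = 0.683) in edgeR's test. Without the 0.2 Gy library of 6 h, Foxl2 was 0.29 and Cyp19a1 0.65. These 4 and Amh, at 0.58 ± 0.54, were the 5 genes whose late libraries lay wholly above the early ones. With 2 libraries on each side this is common: 13328 of 28162 genes, or 47.3%, had ranges that did not overlap. Of these, 6190 lay higher late, the direction of the 5 genes, and 7138 lower. Inha, at 0.15 ± 0.38, Kitl, at -0.14 ± 0.48, Star, at -0.27 ± 0.41, Cyp11a1, at -0.36 ± 1.14, and Cyp17a1, at -1.21 ± 1.21, had intervals that held 0. The median of the 10 was 0.37, beside -0.031 over all genes. In the same comparison, 17 of the other 20 granulosa genes and 13 of the 16 stroma and theca genes were higher late, each list with a median of 0.36, and none was called. The 24 steroid pathway genes had a median of 0.078 and the 13 inhibin and activin genes one of 0.25, with none called. All 6 red blood cell genes were higher too, with a median of 0.70. The surface epithelium genes had a median of 0.53, the oocyte genes of 0.048, the leukocyte genes of -0.00054 and the endothelial genes of -0.066. In the leukocyte and in the endothelial list, 4 genes were higher and 4 lower. No gene of these lists was called, and the part of these other cells in the 4 differences was not tested.

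The difference between the doses in this change was tested as an interaction in the same 11 libraries, where the late libraries of 0.5 Gy are those of 4 and 6 h. None of the 10 genes was called, where 0.032% of 28162 genes were, and DESeq2 and limma called none. At an unadjusted p under 0.05, 3 of the 10 passed, where 8.14% of all genes did. The difference was 1.60 ± 0.49 on the log2 scale for Hsd3b1, with an adjusted p of 0.525, 1.01 ± 0.35 for Foxl2, with 0.545, and 0.71 ± 0.31 for Fst, with 0.602. The median of the 10 was 0.14, beside -0.049 over all genes. All 16 stroma and theca genes differed in the same direction, with a median of 0.73, and none was called. As every 0.2 Gy library is of the third generation, the difference between doses is also one between generations.

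**Figure D5:**
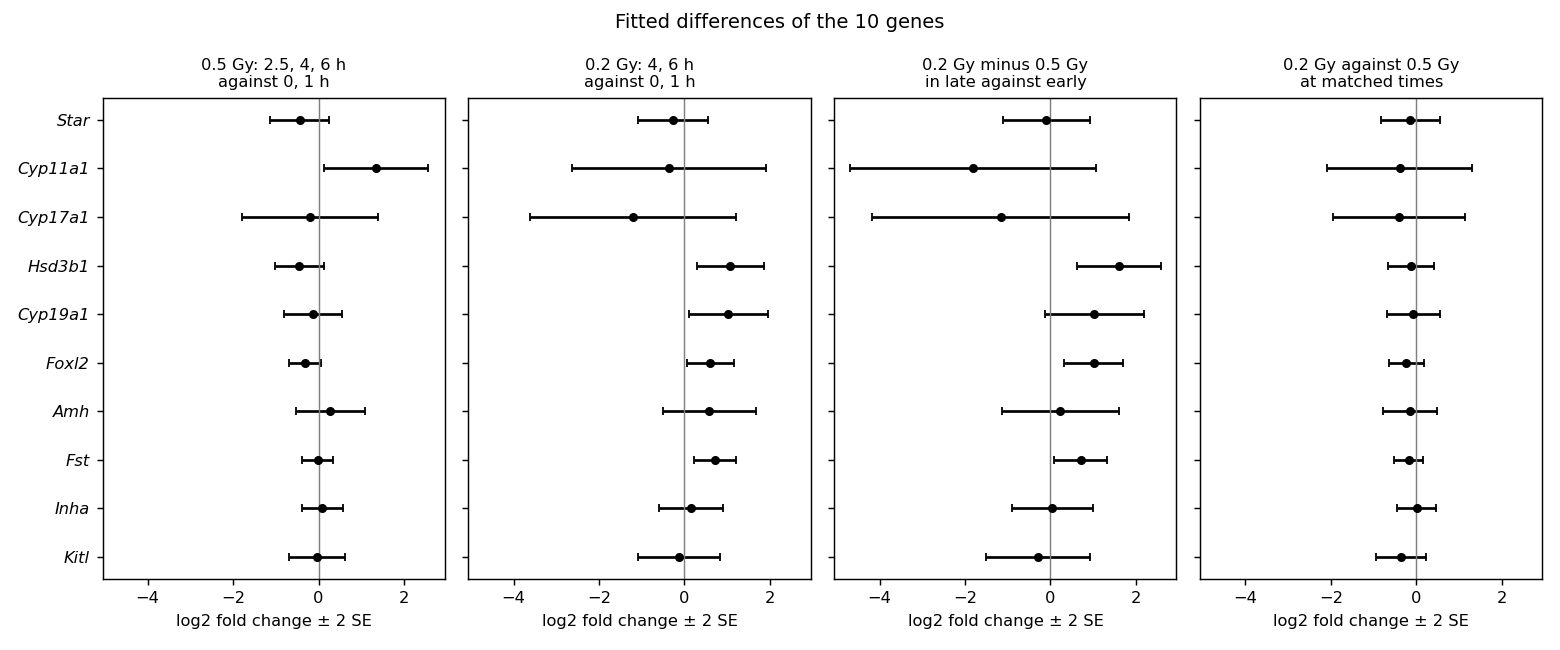
Fitted log2 fold change of each gene with an interval of 2 SE either side, in the late against early comparison of 0.5 Gy (4 libraries a side) and of 0.2 Gy (2 a side), in the difference between doses fitted with 4 and 6 h as late at both, and between the doses at matched times. Intervals of Hsd3b1, Cyp19a1, Foxl2 and Fst lay above 0 at 0.2 Gy, none with an adjusted p under 0.05, and between the doses all 10 intervals held 0.

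The level itself was compared between the doses over all 13 libraries with time as a factor. None of the 10 genes was called, where 0.00351% of 28493 genes were, DESeq2 and limma called none, and none of the 10 had an unadjusted p under 0.05, where 11.5% of all genes did. The ranges of the doses overlapped for all 10, where 0.986% of all genes had ranges that did not. Inha was 1016 ± 271 CPM at 0.5 Gy (SD, n = 8) and 1052 ± 372 at 0.2 Gy (n = 5), a log2 fold change of 0.01 ± 0.23 with an interval from -0.44 to 0.47. Hsd3b1 was 357 ± 120 and 327 ± 128 CPM, a log2 fold change of -0.13 ± 0.27. The other 8 genes were lower at 0.2 Gy by fitted values from -0.08 for Cyp19a1 to -0.41 for Cyp17a1, each with an interval that held 0. The 8 leukocyte genes had a median of -0.50 and the 6 red blood cell genes of -0.85 between the doses, with none called, so these lists stood further from 0 than the median of the 10 genes, -0.17.

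Genes outside the list were ranked by how closely their log2 CPM followed the summed level of each group over the 13 libraries, among 18341 genes with a mean of at least 1 CPM. The closest to the steroidogenic sum were Gm12366, Utp18, Nipsnap3b, Rabgap1l and Evi2, with Pearson correlations between 0.831 and 0.867. The closest to the granulosa sum were Acsbg1, Gtf2ird2, Car9, Cryl1 and Mrap, between 0.878 and 0.888. These are descriptions over 13 libraries of different depth, dose and generation, and the genes were picked as the closest of all those ranked.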

How the data were processed

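Oocyte RNA of 13 libraries was amplified with a SMARTER kit and sequenced in reads of 30 bases. One label and the study's methods describe them as paired, and another label as single. The estimated counts (NumReads) were made by the authors with salmon on Ensembl transcripts of GRCm38 and deposited per transcript without normalization or filter. The deposited TPM values are salmon's own, per transcript. Deposited tables of DESeq2 fold changes and merged normalized counts were not used. Here, estimated counts were summed per GENCODE gene and rounded. 402 transcripts without a gene, with at most 0.495% of a library's reads, were left out.

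Genes were filtered with filterByExpr, scaled with TMM and tested with edgeR 4.0.16 (R 4.3.3), quasi-likelihood, two-sided. Alternatives were RLE scaling, library size only, no filter, DESeq2 1.42.0, limma 3.58.1 (voom), coding transcripts only, a block for generation and fits without 1 library. Steps were tested on simulated counts. Stretches of 30 bases, coding sequences and promoters were read from GENCODE and RefSeq tables with pandas 2.3.3.

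The 10 genes and all marker lists were chosen with earlier results of these data known. All 10 were named, with the 2 genes of highest mean TPM of each other list, any of its genes called, and the 5 genes most like each group. Log2 CPM used a prior count of 2.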

Additional observations from a re-analysis of the deposited data

How the results depend on the processing

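None of the 10 genes was called by edgeR or limma under any setting. DESeq2 called 1 of the 10, Cyp17a1 at 6 h, against none in the reported fit. Of 280 fold changes of the 10 genes under other settings in the late against early, difference and dose comparisons, 268 kept their direction, and the 12 that turned had reported sizes of at most 0.149 on the log2 scale. Of 280 at the time points against 0 h, 260 kept theirs, and the 20 that turned had sizes of at most 0.236. Several time points rest on 1 library, and Cyp11a1 and Cyp17a1 on few reads. The cause of the differences between settings was not tested.

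Counts over all genes moved by more than 1.5 times as follows, in the order time points against 0 h (0 genes), late against early at 0.5 Gy (29), at 0.2 Gy (13), difference between doses (9) and dose (1). Without the filter they were 139, 58, 32, 22 and 52, and with DESeq2 252, 203, 136, 114 and 215. Scaling by library size gave 2 for the time points and 0 for dose. Limma gave 17 late against early at 0.5 Gy, 0 for the difference and 6 for dose. Coding transcripts alone gave 0 at 0.2 Gy and 0 for the difference, and a median share of reads of 0.229% for the 10 genes in place of 0.171%. Generation in place of dose gave 39.

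The difference between replicate 1 and replicate 2 in log2 CPM was compared between time points of 0.5 Gy over 28493 genes. These differences correlated at 0.130 for 0 h and 1 h, 0.078 for 0 h and 4 h and 0.109 for 1 h and 4 h. As not all were over 0.1, the numbers were not taken as pairs. With generation as a replicate block, 8 genes were called at the time points and 18 late against early at 0.5 Gy, none of them among the 10, and Fst turned to 0.031.

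Directions also turned for Inha between doses with RLE (-0.0032), DESeq2 (-0.0032) and no filter (-0.015). Late against early at 0.5 Gy, Fst was 0.043 by library size and 0.029 without the filter, and Kitl was 0.046, 0.031 and, in limma, 0.065. By library size, Inha was -0.017 at 0.2 Gy and -0.17 in the difference, and Cyp19a1 0.023 between doses.

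Fits without 1 library called 0 to 12 genes at the time points, 10 to 37 late against early at 0.5 Gy, 1 to 18 at 0.2 Gy, 0 to 13 for the difference and 0 to 5 for dose, with none of the 10 among them. Of 300 such fold changes of the 10 genes at the time points 36 turned, among them Cyp11a1 at 4 h (1.29, and -0.62 without replicate 2 of 4 h), Amh at 4 h (0.41, and -0.74 without the same library) and Kitl at 2.5 h (-0.85, and 0.21 without replicate 2 of 0 h). Of 430 in the other comparisons 53 turned. At 0.5 Gy the ranges were -1.50 to 0.53 for Cyp17a1 (lowest without replicate 2 of 4 h, highest without replicate 1 of 0 h), -0.52 to 0.048 for Cyp19a1, -0.20 to 0.092 for Fst, -0.085 to 0.28 for Inha and -0.23 to 0.34 for Kitl. At 0.2 Gy they were -0.95 to 0.18 for Star, -4.24 to 0.58 for Cyp11a1 (lowest without 6 h, highest without 4 h), -2.38 to 0.069 for Cyp17a1, -0.26 to 0.56 for Inha and -1.06 to 0.43 for Kitl. In the difference they were -0.77 to 0.33 for Star, -2.35 to 0.89 for Cyp17a1, -0.13 to 0.55 for Amh, -0.36 to 0.45 for Inha and -1.25 to 0.27 for Kitl. Between doses they were -0.52 to 0.18 for Star, -1.05 to 0.25 for Cyp11a1, -1.002 to 0.17 for Cyp17a1, -0.45 to 0.12 for Hsd3b1, -0.39 to 0.16 for Cyp19a1, -0.28 to 0.0086 for Amh and -0.14 to 0.15 for Inha.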
